A study of Mus musculus with 12 samples.

Results

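The mitochondrial ribosomal proteins were taken as every probe of an Illumina MouseWG-6 v2 BeadChip whose gene symbol began with Mrpl (large subunit) or Mrps (small subunit), without regard to case. The array carried 125 such probes for 73 symbols. A probe was kept where its signal was called detected, with a detection p-value under 0.01, on at least 4 of the 12 arrays, which left 102 probes for 67 genes out of 16179 kept probes among 45281. All mice were C57BL/6 males aged 10 weeks, with no genetic change named in the labels. Colistin, a polymyxin antibiotic that disrupts the membranes of Gram-negative bacteria and is known to injure the kidney, was given to 6 mice at 16 mg/kg per day in 2 doses. The other 6 mice had 0.1% saline, also 2 times a day, and exposure lasted 72 hours in both groups. Total kidney RNA was hybridised on 2 BeadChips, each with 3 mice of each group. Within a BeadChip the positions of the colistin mice alternated with those of the saline mice in a fixed order, so an effect of position cannot be told apart from that of treatment.

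Mitochondria carry their own ribosome, the mitoribosome, which translates the few proteins encoded by mitochondrial DNA, all of them subunits of the respiratory chain and ATP synthase. All of its protein subunits are encoded in the nucleus, made in the cytosol and imported, and they join ribosomal RNAs that are transcribed from mitochondrial DNA. Proximal tubule cells of the kidney depend on oxidative phosphorylation for the transport of solutes and are rich in mitochondria.

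Each array detected 14679 to 15870 probes in colistin mice and 14661 to 16154 in saline mice, and 99 to 102 of the mitoribosomal probes in colistin mice against 100 to 102 in saline mice. Saline mouse 5 had a dimmer array, with a 95th percentile of raw signal of 475 against at least 752 on each other array. That percentile averaged 870 ± 77.3 in colistin mice and 746 ± 140 in saline mice (SD, n = 6 each; exact two-sided permutation p = 0.0584, adjusted over 5 array measures 0.146). The 75th percentile averaged 131 ± 5.66 in colistin mice and 122 ± 9.40 in saline mice (exact permutation p = 0.0433, adjusted 0.146), and the raw median of the mitoribosomal probes 691 ± 64.4 in colistin mice and 607 ± 93.7 in saline mice (exact permutation p = 0.0909, adjusted 0.152). All 10 proximal tubule markers examined were measured. The log2 of their summed normalized signal was 15.89 to 16.04 in colistin mice and 15.59 to 16.08 in saline mice. It was lowest in saline mouse 2. Sums given below were taken in the same way, so the brightest genes weigh most in them. Of 12 listed markers of dividing cells 9 were measured, without Ccnb2, Aurkb and Bub1. All 9 rose with colistin, with a median log2 difference of 1.13. Some were dim in saline mice, with a mean of 4.40 for Ccnb1 against 4.51 for a Mrpl1 probe detected on 0 arrays. Such a marker can pass the detection rule through its colistin arrays alone. The part of that rule in the shared direction was not tested. Markers of other nephron segments (10 of 10 measured) had a median log2 difference of -0.25, with 6 below 0 and 4 above. Of these only Pvalb passed an adjusted p under 0.05, at -1.13 ± 0.19 (SE, adjusted p = 0.0136 by limma). Over all kept probes 0.457% passed. In whole-kidney RNA, fewer cells of a type and less RNA per cell cannot be told apart. The number of arrays limits the precision of each value.

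No mitoribosomal transcript changed with colistin at an adjusted p under 0.05: limma called 0 of 102 probes, against 0.457% of all kept probes (0.321% higher and 0.136% lower). At an unadjusted p under 0.05 there were 4 of 102 (3.92%), with 1 higher and 3 lower, against 10.9% of all probes (5.56% higher and 5.35% lower). With 1 mouse left out this count was 2 to 10. It was 10 without saline mouse 1 (20.1% of all probes) or saline mouse 3 (15.1% of all), and 7 without colistin mouse 6 (10.7% of all). It was 2 without colistin mouse 1 (9.13% of all), colistin mouse 5 (8.12%) or saline mouse 4 (8.37%). On BeadChip 2 alone it was 20, against 20.7% of all probes. The lowest adjusted p of any mitoribosomal probe was 0.275. In 0 of 102 probes did the colistin and saline mice fail to overlap, against 1% of all probes. All values below are log2 signal after background correction and quantile normalization, and a difference is the colistin mean minus the saline mean.

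The differences were small as well as uncalled. They ran from -0.30 to 0.27, so that the widest departures were a signal 1.23-fold lower and 1.21-fold higher in colistin mice. The 95% confidence interval of the difference lay within 1.5-fold in either direction for 97 of 102 probes (95.1%, against 80.6% of all probes), and within 2-fold for all 102. Within the tighter limit of 1.25-fold lay 44 of 102 (43.1%, against 30.8%). The 5 probes whose interval reached past 1.5-fold belonged to Mrpl1, Mrpl20, Mrpl33, Mrps18b and Mrps18c. For those 5 probes a difference of that size lay inside the interval, and for the other probes it lay outside. For Mrpl1, Mrpl20, Mrpl33 and Mrps18c only a lower signal of that size did, as the intervals ended at 0.15, 0.11, 0.09 and 0.19. For Mrps18b it was a dimmer probe, and the interval of its brightest probe, -0.17 to 0.37, lay within 1.5-fold.

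**Figure D1:**
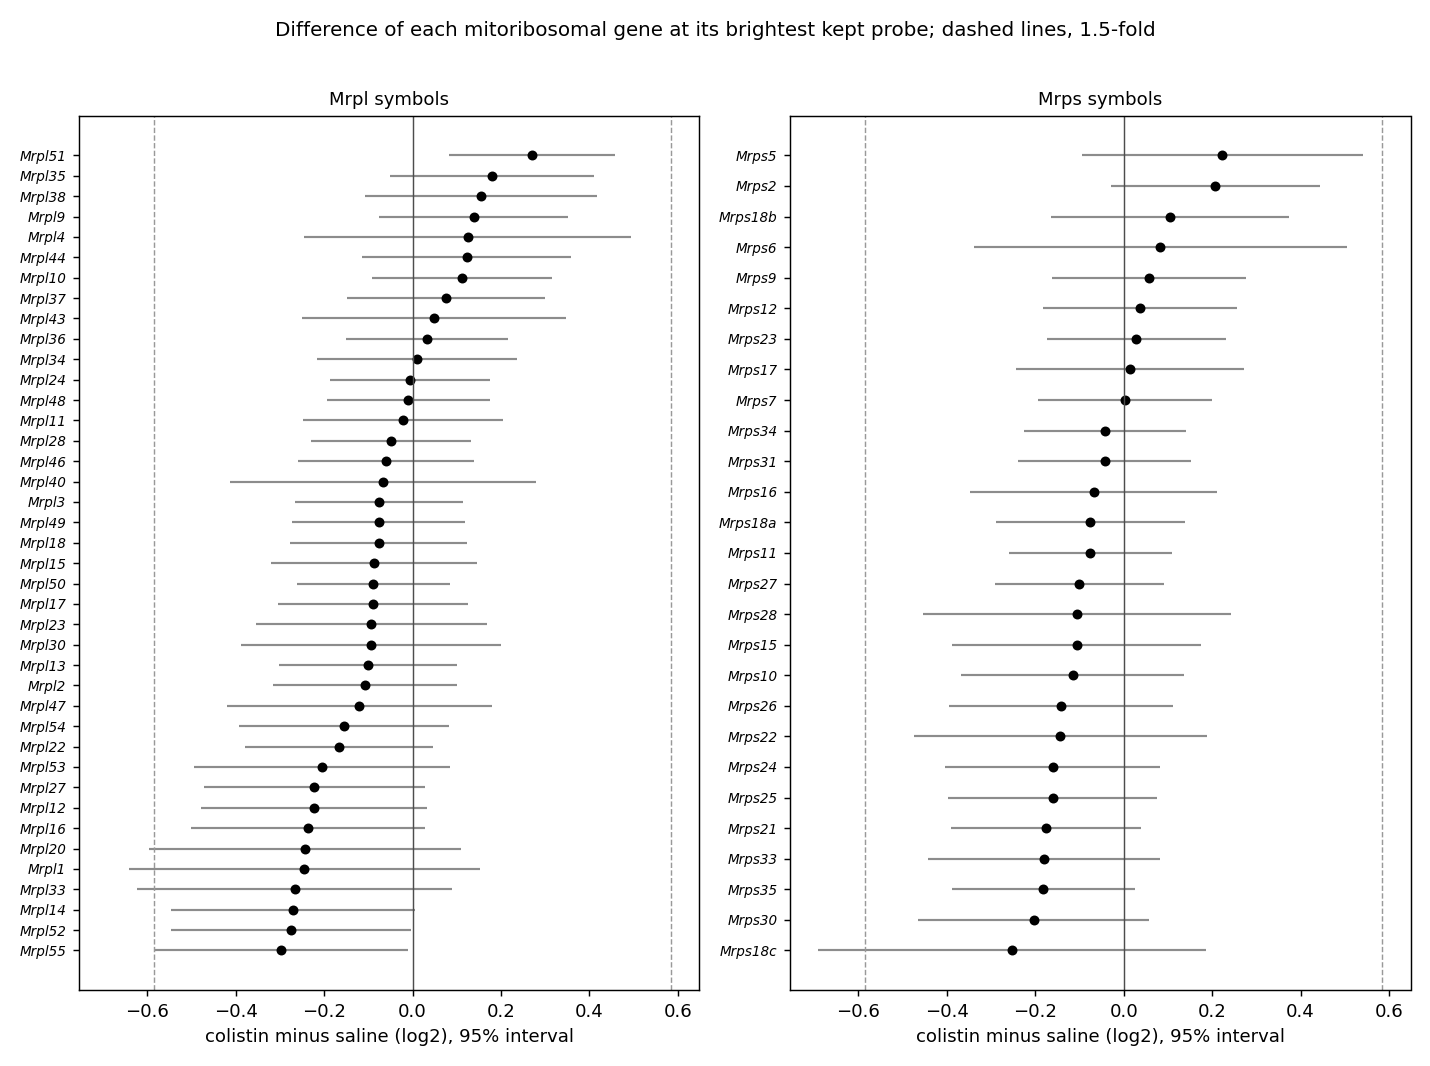
Log2 difference (colistin minus saline, 6 mice each) of the brightest kept probe of each of 67 mitoribosomal genes, in a panel for the 40 Mrpl genes and one for the 27 Mrps genes. Bars are 95% confidence intervals of limma and dashed lines mark 1.5-fold. Points lie between -0.30 and 0.27, with 47 genes below 0 and 20 above.

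More probes lay slightly below 0 than above it. The difference was below 0 for 71 of 102 probes (69.6%, against 46.9% of all probes), with a median of -0.08 against 0.01 over all probes. The mean over all 102 probes, relative to the saline mean, ran from -0.12 to -0.01 in colistin mice, all 6 below 0, and from -0.09 to 0.12 in saline mice. The groups overlapped, and the SD of this mean over mice was 0.06. Saline mouse 5, at 0.12, and saline mouse 2, at 0.04, were the highest of the 12, saline mouse 4 followed at 0.02, and the other 3 saline mice lay within the colistin range. Without these 2 mice the median was -0.02 (0.00 over all probes) and 58 of 102 probes lay below 0 (56.9%, against 49.2%). Since these were the highest mice on this mean, leaving them out moves the mean difference upward by construction. The same limit holds for every value below without saline mice 2 and 5. A difference rises by construction where they were the highest saline mice, and falls where they were the lowest.

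Both subunits gave similar values. The 61 large-subunit probes had a median of -0.08, with 44 below 0, and the 41 small-subunit probes a median of -0.07, with 27 below 0. Proteins with a bacterial counterpart form the core inherited from the bacterial ancestor, and others are found only in mitochondrial ribosomes. In the large subunit the median was -0.10 for 38 probes of bacterial homologues and -0.07 for 25 probes of mitochondria-specific proteins, a group that by structure takes in Mrps18a and Mrps30. In the small subunit the medians were -0.06 for 20 probes and -0.07 for 19 probes.

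The large-subunit proteins included the stalk that recruits translation factors. Mrpl12, a stalk protein, had log2 signals with a lowest, median and highest value of 11.63, 11.83 and 11.98 in colistin mice, against 11.82, 11.94 and 12.44 in saline mice. Each colistin mouse lay below the saline mean, but the ranges overlapped. Its difference was -0.22 ± 0.12 (SE, n = 6 each), adjusted p = 0.503 by limma. Mrpl10, which anchors the stalk, had a difference of 0.11 ± 0.10 (adjusted p = 0.645) and Mrpl11, at its base, one of -0.02 ± 0.11 (adjusted p = 0.942). The median over the 4 stalk probes was 0.04.

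At the central protuberance, the crown of the large subunit that contacts tRNAs and the small subunit, 9 of 11 probes lay below 0, with a median of -0.07. Mrpl55, which sits there, had signals of 7.63, 7.77 and 8.26 in colistin mice against 7.89, 8.09 and 8.50 in saline mice (lowest, median, highest). Of the colistin mice, 5 of 6 lay below the saline mean and colistin mouse 6 lay above it. Mrpl55 had the lowest difference of all the genes, -0.30 ± 0.13 with an interval of -0.58 to -0.01, and an adjusted p of 0.445 by limma.

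Mrpl52, also of the central protuberance, had signals of 7.81, 8.04 and 8.19 in colistin mice against 7.97, 8.31 and 8.63 in saline mice. All 6 colistin mice lay below the saline mean, while saline mice 1 and 3 lay inside the colistin range. The difference was -0.27 ± 0.13, adjusted p = 0.454. Mrpl38, a further protein of this region, had 10.26, 10.57 and 10.60 in colistin mice against 10.04, 10.31 and 10.85 in saline mice, and a difference of 0.15 ± 0.12 (adjusted p = 0.62). Its second probe gave -0.07, so the sign rested on the probe.

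Around the peptidyl transferase centre and the subunit interface, Mrpl14 had signals of 9.93, 10.11 and 10.47 in colistin mice against 10.11, 10.35 and 10.87 in saline mice. Mrpl14 contacts the small subunit in the assembled ribosome. Colistin mouse 4 was the highest of its group, and the other 5 lay below the saline mean. The difference of Mrpl14 was -0.27 ± 0.13 (adjusted p = 0.462 by limma). Mrpl16 gave -0.24 ± 0.12 and Mrpl27 -0.22 ± 0.12 (adjusted p = 0.50 and 0.502 by limma). Mrpl16 and Mrpl27 are the homologues of bacterial proteins close to the catalytic centre. Without saline mice 2 and 5 the difference was -0.28 for Mrpl16, -0.12 for Mrpl14 and -0.08 for Mrpl27.

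The tunnel exit, where new chains leave toward the inner membrane, had 6 kept probes, all below 0 with a median of -0.11. Without saline mice 2 and 5 that median was 0.02. Mrpl45, which ties the ribosome to the membrane in mammals, had no kept probe.

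Higher values were seen for a minority. Mrpl51, a mitochondria-specific protein of the large subunit, had 5.60, 5.87 and 5.98 in colistin mice against 5.48, 5.55 and 5.76 in saline mice. Colistin mouse 1 was as low as the saline mice and the other 5 lay above every saline mouse. The difference of 0.27 ± 0.09 (interval 0.08 to 0.46) was the highest among the genes, with an adjusted p of 0.275 by limma. The other 2 kept probes of Mrpl51, detected on 5 arrays each, gave -0.07 and 0.02.

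Mrps5, whose bacterial counterpart lies at the entry of the mRNA channel, had 7.03, 7.22 and 7.94 in colistin mice against 6.81, 7.08 and 7.49 in saline mice. Colistin mouse 4 stood apart at 7.94, with the next colistin mouse at 7.26. The difference was 0.22 ± 0.15, adjusted p = 0.576. Mrps2, a small-subunit homologue, gave 0.21 ± 0.11 (adjusted p = 0.503) and Mrpl35, of the large subunit, 0.18 ± 0.11 (adjusted p = 0.541). Mrps12, the decoding-centre homologue of the protein that carries streptomycin resistance in bacteria, gave 0.04 ± 0.10 (adjusted p = 0.897). Over the 6 probes of the mRNA path and decoding region the median was -0.06.

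**Figure D2:**
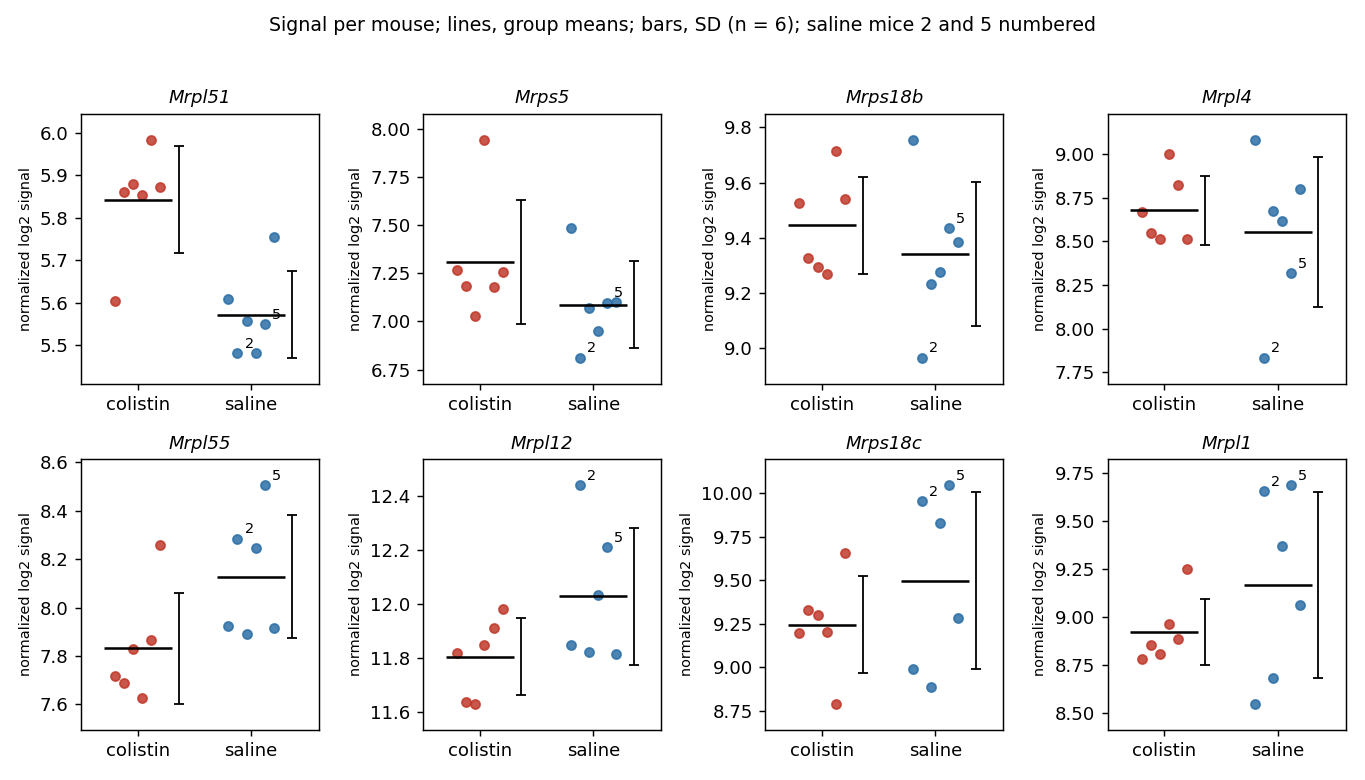
Log2 signal of 8 mitoribosomal genes in each mouse, with colistin on the left and saline on the right of each panel. Bars are the mean and SD of 6 mice, and saline mice 2 and 5 carry their numbers. The groups overlap in every panel, and in Mrps18c and Mrpl1 saline mice 2 and 5 stand near the top of the saline range (9.95 and 10.04 in Mrps18c).

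Genes with several probes gave a check within the array. Of 23 genes with at least 2 kept probes, 7 had probes of opposite sign: Mrpl38, Mrpl48, Mrpl51, Mrps7, Mrps10, Mrps12 and Mrps31. Mrpl15, a large-subunit homologue, had 6 kept probes, all below 0 and between -0.25 and -0.03. One of these had an unadjusted p of 0.0150 and an adjusted p of 0.336 in the limma fit, and the brightest gave -0.09. For Mrpl49 all 4 probes lay below 0, and for Mrps18b all 3 lay above.

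The 2 BeadChips were compared separately. On BeadChip 1 the median difference of the 102 probes was -0.01, with 56 below 0 (54.9%, against 46.8% of all probes). On BeadChip 2 it was -0.14, with 74 below 0 (72.5%, against 48.2%). The sign was the same on both for 64 of 102 probes (62.7%, against 63.4% of all). A treatment effect that differed between BeadChips was called for 0 of 102 probes (0% of all probes) by limma, and 1 probe had an unadjusted p under 0.05 (2.55% of all). That was Mrps22, a mitochondria-specific small-subunit protein, with an interaction of -0.65 ± 0.28 and an adjusted p above 0.99. A difference between the BeadChips themselves was likewise called for 0 of 102 probes, with 4 at an unadjusted p under 0.05 (4.98% of all).

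**Figure D3:**
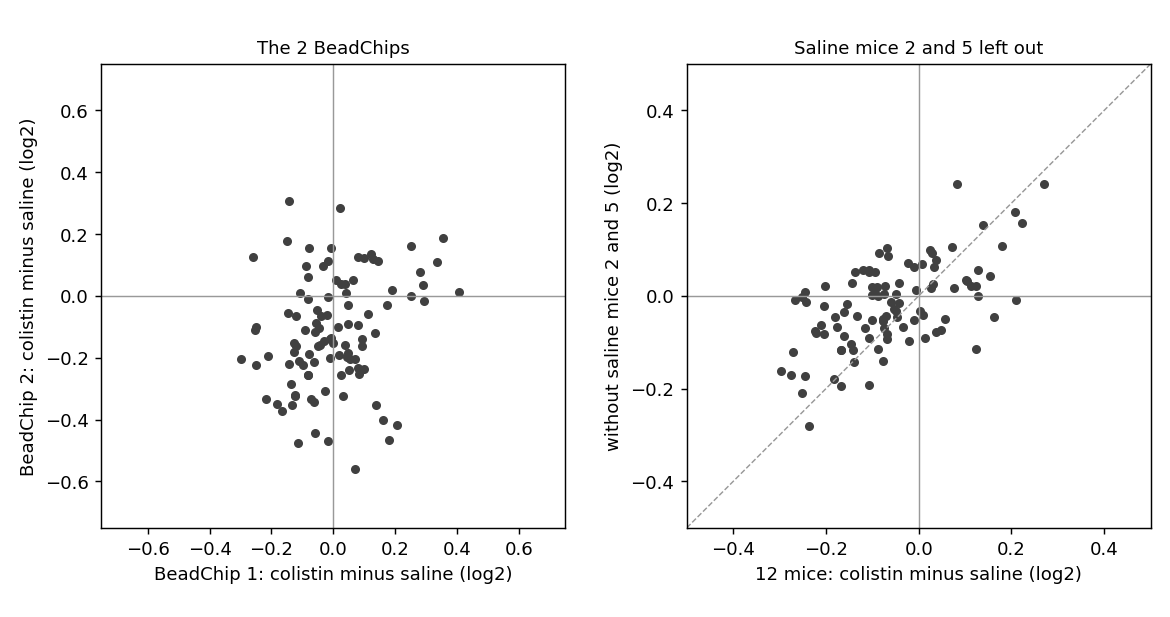
Left, the log2 difference (colistin minus saline) of each of 102 mitoribosomal probes on BeadChip 2 against that on BeadChip 1. Right, the difference without saline mice 2 and 5 against that with all 12 mice. BeadChip medians are -0.01 and -0.14, and the median without the 2 mice is -0.02 against -0.08 with all.

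These transcripts varied more among the saline mice than among the colistin mice, as did those of the whole array, to a slightly greater degree. The median SD of a mitoribosomal probe was 0.14 over colistin mice and 0.20 over saline mice (0.16 and 0.25 over all probes), and the SD over saline mice was the larger for 75 of 102 probes (73.5%, against 78.8% of all). Saline mouse 2 had the highest signal of the 12 for 28 probes (27.5%, against 25.2% of all probes) and the lowest for 21 (20.6%, against 28.3%). Saline mouse 5 was highest for 26 probes (25.5%, against 11.1%) and lowest for 2 (1.96%, against 12.0%). Against the median of the other saline mice, saline mouse 2 was over 0.5 higher for 16 probes and over 0.5 lower for 7, whereas saline mouse 5 was over 0.5 higher for 11 and lower for 0. The share of all probes past 0.5 was not computed. The median absolute difference of saline mouse 2 from the other saline mice was 0.34 over all probes and 0.29 over the mitoribosomal probes. For saline mouse 5 it was 0.22 and 0.18.

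A first principal component held 51.0% of the variance of the 102 probes. Its scores were -1.04 to 0.46 in colistin mice, against 3.46, 2.08 and 1.13 in saline mice 2, 5 and 4 and -1.64 in saline mouse 1. Probes of Mrps18c, Mrpl1, Mrpl33, Mrpl20 and Mrps22 had strong positive weights on it, and probes of Mrps18b, Mrpl4, Mrpl43, Mrpl38 and Mrpl44 strong negative ones. In saline mouse 2, Mrpl33 differed by 0.89 from the median of the other saline mice and Mrpl4, which lines the exit tunnel, by -0.84. In saline mouse 2 the mitoribosomal genes thus did not move as 1 block. All probes were split in that mouse too (25.2% highest and 28.3% lowest of the 12). In saline mouse 5, 11 mitoribosomal probes were over 0.5 higher than the other saline mice and 0 were lower by as much. The summed endothelial marker signal was 11.53 to 12.02 in colistin mice and 11.20 to 12.72 in saline mice, with saline mouse 2 highest, over 9 of 10 markers measured. The summed fibroblast signal (7 of 8 measured) was 9.60 to 10.24 in colistin mice and 10.28 to 11.72 in saline mice, again highest in saline mouse 2, and that of macrophages (9 of 10 measured) was 8.74 to 9.54 in colistin mice and 9.07 to 9.83 in saline mice. By gene, the difference was below 0 for 9 endothelial markers and above 0 for 0, with a median of -0.46. It was below 0 for 6 fibroblast markers and above for 1 (median -0.46). For macrophages it was below 0 for 8 and above for 1 (median -0.43). Over all probes 46.9% lay below 0. In these lists 0 markers were called, against 0.457% of all probes. The part of these markers and of array brightness in the pattern was not tested.

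**Figure D4:**
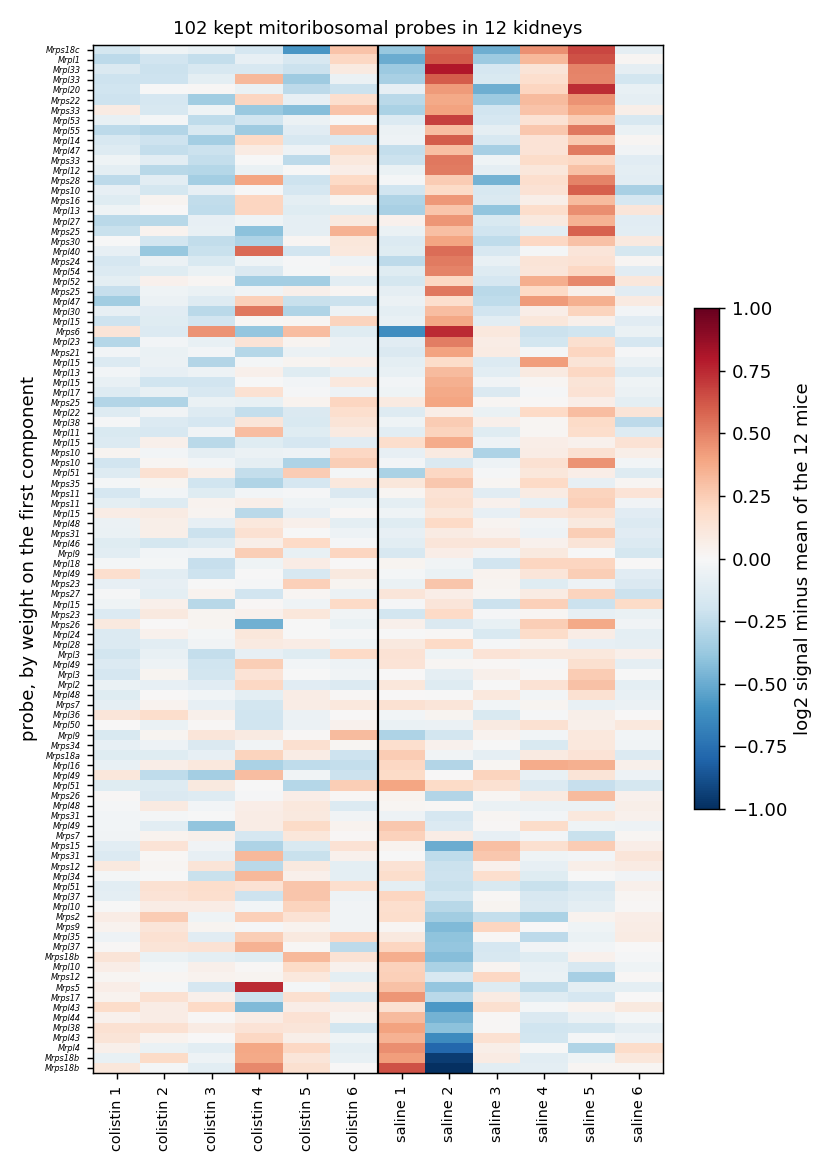
Heat map of the log2 signal of 102 mitoribosomal probes (rows, ordered by their weight on the first component) in 12 mice (columns, colistin on the left). Colours show the difference from the probe's mean. Saline mouse 2 (score 3.46) stands out at both ends of the row order, and saline mouse 5 (score 2.08) mainly at the end of positive weights. The colistin mice (-1.04 to 0.46) are near even.

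The 3 paralogs of the bacterial protein bS18 show this split in saline mouse 2. Mrps18c and Mrps18b belong to the small subunit and Mrps18a to the large subunit. Mrps18c had 8.79, 9.25 and 9.65 in colistin mice against 8.89, 9.56 and 10.04 in saline mice, with saline mice 2 and 5 at 0.67 and 0.76 above the median of the other saline mice. Mrps18b had 9.27, 9.43 and 9.71 in colistin mice against 8.96, 9.33 and 9.76 in saline mice. In saline mouse 2 its 3 probes differed from the median of the other saline mice by -0.42, -1.03 and -1.13. Mrps18a had 9.50, 9.60 and 9.93 in colistin mice against 9.57, 9.73 and 9.95 in saline mice, and saline mouse 2 differed from the others by -0.13. With colistin the differences were -0.25 ± 0.21 for Mrps18c (adjusted p = 0.633), 0.10 ± 0.13 for Mrps18b (adjusted p = 0.747) and -0.08 ± 0.10 for Mrps18a (adjusted p = 0.770).

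Mrpl1, the homologue of a bacterial protein of the mobile L1 stalk, had 8.78, 8.87 and 9.25 in colistin mice against 8.55, 9.22 and 9.69 in saline mice, and a difference of -0.24 ± 0.19 (adjusted p = 0.614) that was 0.01 without saline mice 2 and 5. Mrpl20 gave -0.24 ± 0.17 and Mrpl33 -0.27 ± 0.17 (adjusted p = 0.583 and 0.556 by limma), each -0.01 without those mice. In Mrpl1, Mrpl20 and Mrpl33 saline mice 2 and 5 held the highest saline values, so these differences rise by construction when they are left out. Mrps6, a small-subunit homologue, lay 0.95 above the other saline mice in saline mouse 2, and its difference was 0.08 ± 0.20 (adjusted p = 0.880), or 0.24 without saline mice 2 and 5. Mrps28 gave -0.11 ± 0.16 (adjusted p = 0.801) and Mrps30, a protein of the large subunit despite its symbol, -0.20 ± 0.12 (adjusted p = 0.540).

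The other named genes were not called either. Mrps24, whose bacterial counterpart lines the mRNA channel, had 11.97, 12.08 and 12.13 in colistin mice against 11.88, 12.21 and 12.66 in saline mice, a difference of -0.16 ± 0.11 (adjusted p = 0.594). Mrps33 gave -0.18 ± 0.12, Mrps34 -0.04 ± 0.09, Mrps15 -0.11 ± 0.13 and Mrps27 -0.10 ± 0.09, all of the small subunit. Mrpl9 gave 0.14 ± 0.10, Mrpl44 0.12 ± 0.11 and Mrpl4 0.12 ± 0.17, and the value for Mrpl4 was -0.11 without saline mice 2 and 5. The brightest probes of Mrpl48, Mrps7, Mrps10 and Mrps31 gave -0.01, 0.00, -0.12 and -0.04.

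Promoter windows are shown for the Mrps18 paralogs, which parted in saline mouse 2, and for Mrpl1 and Mrpl43, with weights of opposite sign on the first component; the choice was made after their values were seen. They are RefSeq sequences on GRCm38.p6, 250 bases before to 50 after the transcript start, 5′ to 3′ on the gene's strand. Capitals mark CCGGAAG (the core of ETS factors such as GABP), the GC-rich palindrome of NRF1 with 1 free base at its centre, AAGATGGC (YY1) and CCAAT (NFY) on either strand, which did not overlap in these windows.
Mrps18a, chr17:46110754-46111053, plus strand: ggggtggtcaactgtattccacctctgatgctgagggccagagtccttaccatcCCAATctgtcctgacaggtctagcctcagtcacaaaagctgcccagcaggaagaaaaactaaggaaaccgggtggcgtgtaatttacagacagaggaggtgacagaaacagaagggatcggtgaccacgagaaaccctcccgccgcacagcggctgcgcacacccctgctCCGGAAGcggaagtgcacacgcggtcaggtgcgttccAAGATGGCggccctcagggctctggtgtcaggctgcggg
Mrps18b, chr17:35916391-35916690, minus strand: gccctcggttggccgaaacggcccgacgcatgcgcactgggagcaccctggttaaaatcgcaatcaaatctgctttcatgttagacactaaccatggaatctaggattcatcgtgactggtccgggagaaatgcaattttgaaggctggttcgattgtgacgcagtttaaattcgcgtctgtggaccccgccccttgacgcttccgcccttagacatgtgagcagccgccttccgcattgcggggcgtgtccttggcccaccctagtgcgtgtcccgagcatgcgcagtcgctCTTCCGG
Mrps18c, chr5:100798509-100798808, plus strand: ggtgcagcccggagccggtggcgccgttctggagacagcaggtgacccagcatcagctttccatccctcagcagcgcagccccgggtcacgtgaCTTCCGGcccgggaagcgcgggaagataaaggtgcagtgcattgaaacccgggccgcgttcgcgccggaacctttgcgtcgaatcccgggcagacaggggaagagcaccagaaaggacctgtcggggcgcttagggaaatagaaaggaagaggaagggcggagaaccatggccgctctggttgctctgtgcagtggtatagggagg
Mrpl1, chr5:96209865-96210164, plus strand: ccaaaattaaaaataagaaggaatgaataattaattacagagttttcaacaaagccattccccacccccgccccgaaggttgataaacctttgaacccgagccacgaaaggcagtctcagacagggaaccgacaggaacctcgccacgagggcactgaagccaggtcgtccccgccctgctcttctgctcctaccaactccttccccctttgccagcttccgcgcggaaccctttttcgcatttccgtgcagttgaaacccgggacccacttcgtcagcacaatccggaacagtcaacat
Mrpl43, chr19:45006393-45006692, minus strand: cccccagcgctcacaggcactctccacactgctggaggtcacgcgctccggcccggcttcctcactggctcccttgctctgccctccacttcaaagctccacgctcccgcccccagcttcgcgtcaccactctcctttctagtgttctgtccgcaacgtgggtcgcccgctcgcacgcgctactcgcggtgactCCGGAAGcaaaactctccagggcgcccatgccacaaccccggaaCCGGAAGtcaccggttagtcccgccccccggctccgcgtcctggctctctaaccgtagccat
The Mrps18a window held all but the NRF1 motif, each 1 time, Mrps18b and Mrps18c each held 1 ETS core, Mrpl43 held 2, and Mrpl1 held none of the 4.

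Windows were on file for 59 of the 67 genes, giving 65 windows against 32851 in the whole table. The ETS core was in 23 of 65 (35.4%, against 8.86% of all windows), YY1 in 10 (15.4%, against 2.75%) and NRF1 in 9 (13.8%, against 4.6%). At least 1 of the 3 was in 36 (55.4%, against 14.7%). These factors are known regulators of nuclear genes for mitochondrial proteins. CCAAT was in 25 (38.5%, against 37.4%) and TATAAA in 5 (7.69%, against 13.6%). Median GC content was 58.3% against 52.7%, and the motifs are themselves rich in G and C. A match is a string of letters and says nothing of binding in these kidneys.

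**Figure D5:**
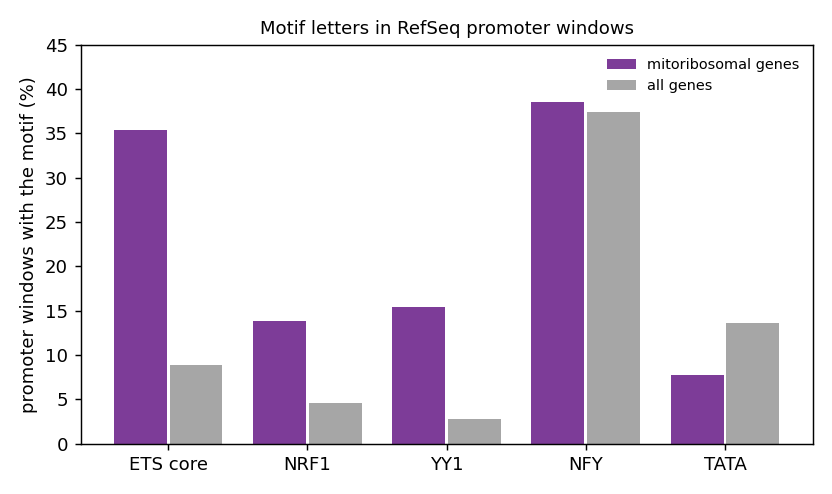
Percent of promoter windows of 300 bases that hold each motif on either strand, for 65 windows of mitoribosomal genes and for all 32851 windows. The ETS core is in 35.4% against 8.86%, and CCAAT in 38.5% against 37.4%.

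Genes that work with the mitoribosome were also uncalled. Since only 0.457% of all kept probes were called, a count of 0 in each short list below is near that share. It is no result about these genes. Mitoribosomal proteins with another symbol on the array were measured for 7 genes, 4 below 0 and 3 above, with a median difference of -0.03 and 0 called in either direction. Mrpl42, listed as D10Ertd322e, gave 0.29 ± 0.16 (adjusted p = 0.506), and Mrpl57, listed as Mrp63, gave 0.00 ± 0.10. Chchd1, a small-subunit protein, gave -0.20 ± 0.15 and Aurkaip1, another, -0.13 ± 0.09. Without saline mice 2 and 5, Chchd1 gave -0.02, Aurkaip1 -0.06 and Mrpl42 0.28. Among 11 of 13 translation factors the median was 0.02, with 0 called. Mtif2, which brings the initiator tRNA, gave -0.18 ± 0.12 (adjusted p = 0.568) and Gfm1, the translocation factor, 0.33 ± 0.24 (adjusted p = 0.599). With saline mice 2 and 5 left out, Mtif2 gave -0.07 and Gfm1 -0.01.

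The list of mitochondrial aminoacyl-tRNA synthetases, which charge the tRNAs used in the organelle, also held Gatb, Gatc and Qrsl1, subunits of an amidotransferase. Of this list 17 of 20 were measured, with 12 above 0, 0 called and a median of 0.07. Gatb, Qrsl1 and Gatc were among those above 0, at 0.29, 0.23 and 0.12. A median without them was not computed. Iars2, for isoleucine, gave 0.29 ± 0.14 (adjusted p = 0.483 by limma), and 0.08 without saline mice 2 and 5. The log2 of the summed signal of this list was 12.26 to 12.44 in colistin mice and 12.01 to 12.51 in saline mice. Saline mouse 2 was lowest at 12.01. By contrast, the summed large-subunit bacterial homologues were 14.61 to 14.80 in colistin mice and 14.64 to 15.04 in saline mice, highest in saline mouse 2.

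Assembly factors (19 of 24 measured) had a median of 0.04 and 0 called. Mettl17, which binds the small subunit during its assembly, gave 0.41 ± 0.18 (adjusted p = 0.419) and Tfb1m, which methylates the small ribosomal RNA, -0.19 ± 0.09 (adjusted p = 0.460). Mettl17 gave 0.13 and Tfb1m -0.12 without saline mice 2 and 5. Genes of mitochondrial DNA upkeep and transcription (14 of 14) had a median of -0.04 and 0 called. Twnk, the replicative helicase, gave 0.42 ± 0.13 (adjusted p = 0.253) and Lrpprc, which stabilises mitochondrial mRNAs, 0.42 ± 0.19 (adjusted p = 0.448). Twnk gave 0.28 and Lrpprc 0.18 without saline mice 2 and 5.

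Mrpl19, Mrpl21, Mrpl32, Mrpl39, Mrpl45 and Mrps14 had no kept probe and give no value here. Of the 23 probes not kept, 22 were detected on 0 arrays. Just inside the detection rule were the 2 further Mrpl51 probes, on 5 arrays each, and a second Mrpl47 probe on 7, and just outside it was a probe of Mrps5 on 2.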

How the data were processed

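RNA from 12 mouse kidneys (6 colistin, 6 saline) was measured on Illumina BeadChips. The deposited probe table holds, per the file headers, the intensity of each probe on a linear scale with a detection p-value; the lowest signal was 74.7. The submitters' processing notes name GenomeStudio and Partek, but neither a version nor a setting is given in the sources used here. Intensities were corrected and normalized with neqc of limma 3.58.1 in R 4.3.3 (normexp with an offset of 16, quantile normalization, log2), which uses detection p-values to find the background. Probes detected (p under 0.01) on 4 or more of 12 arrays were tested with lmFit and eBayes, and p-values were adjusted by Benjamini-Hochberg over all 16179 probes. Fits were tested on simulated data. The mice are separate animals.

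Members and gene lists were chosen with earlier results of these data known. A gene with several probes is given by its brightest kept probe. Genes were named for the 10 largest differences each way, the 5 brightest and 5 dimmest, or the 5 largest saline SDs. Others were named for probes of opposite sign, nearness to the detection rule or place in the ribosome. Lists of genes that work with the mitoribosome give the 2 smallest p-values. Markers of cell types are given as counts, medians or summed signal, and not every called marker is named. A value without saline mice 2 and 5, BeadChips apart, and other corrections were alternatives.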

Additional observations from a re-analysis of the deposited data

Results flagged for a closer look

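Among 70 groups of 6 mice, in 35 genes, 6 held a mouse whose gap to its nearest neighbour as a share of the range of the group passed the 95% critical value of Dixon; chance flags about 1 in 20 groups. In colistin mouse 4, Mrpl14 was the highest of its group at 10.47 (next 10.13) and Mrps5 was the highest at 7.94 (next 7.26). In colistin mouse 6, Mrpl33 was the highest at 11.16 (next 10.93) and Mrpl38 the lowest at 10.26 (next 10.52). In colistin mouse 1, Mrpl51 was the lowest at 5.60 (next 5.85). In saline mouse 2, Mrps15 was the lowest at 5.56 (next 6.08).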

How the results depend on the processing

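The number of mitoribosomal probes called changed stayed at 0 under all 26 alternatives (lowest adjusted p by limma 0.104, on BeadChip 2 alone), and their median difference lay between -0.14 and -0.01 in 25 of them, and between -0.10 and -0.04 with 1 mouse left out. The number of all kept probes called changed, 74 as reported, did vary. It was 44 with normexp at an offset of 50, 45 with neqc at that offset, 25 without background correction, 37 on the authors' normalized values, 27 with detection on all 12 arrays, 33 with no detection filter, 298 on BeadChip 2 alone, 471 with array weights and 138 at an adjusted p under 0.10. On BeadChip 1 alone it was 0, with 2.10% of probes at an unadjusted p under 0.05. Leaving out 1 mouse gave 38 to 330, with 330 without saline mouse 1, 38 without saline mouse 4, 47 without saline mouse 6, and 45, 40, 46 and 48 without colistin mouse 2, 3, 5 and 6. The replicate numbers did not pair the mice: deviations correlated at -0.26 to 0.12, 1 of 6 pairs was over 0.1, and 0 of 12 mice correlated best with their own number. With the replicate number as a block the count was 36, with 0 mitoribosomal probes. Of 875 values of named genes under these settings, 70 moved and 44 changed sign, none of them called in either fit. The causes were not tested. Dim probes, such as those of Mrpl51, lie close to background, where small signal differences limit the values.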
